A study of Arabidopsis thaliana with 4 samples.

Results

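The SMXL family of Arabidopsis thaliana has 8 genes, SMAX1 (SUPPRESSOR OF MAX2 1) and its relatives SMXL2 to SMXL8, and their transcripts were followed in the base of the inflorescence stem. They were taken by locus from the 33316 loci counted: AT5G57710 (SMAX1), AT4G30350 (SMXL2), AT3G52490 (SMXL3), AT4G29920 (SMXL4), AT5G57130 (SMXL5), AT1G07200 (SMXL6), AT2G29970 (SMXL7) and AT2G40130 (SMXL8). RNA sequencing compared wild-type plants (WT, Col-0) with the mutant mol1-1 in the same Col-0 background, with 2 libraries per genotype. MOL1 (MORE LATERAL GROWTH1) encodes a receptor-like kinase known to restrain thickening of the stem by the cambium, and the study looked for transcripts that depend on it. Both genotypes spent 3 weeks in short days (8 h light) before long days (16 h light), and 1 cm of stem above the rosette was taken from plants 15 to 20 cm tall. The mutant is represented by 1 allele. The labels do not say how many plants were pooled or whether replicates were grown separately, so p-values measure the spread between these libraries, which may be technical.

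SMXL proteins are nuclear repressors related to Clp-type ATPases. Strigolactones, hormones that limit shoot branching and promote secondary growth, are bound by the receptor D14, and the related receptor KAI2 mediates responses to karrikins. Each receptor then recruits the F-box protein MAX2, which marks SMXL proteins for degradation. SMAX1 and SMXL2 are known as the targets of the KAI2 branch, and SMXL6, SMXL7 and SMXL8 as those of D14. SMXL3, SMXL4 and SMXL5 promote phloem formation and are not degraded in response to strigolactone. Since the known hormone control acts on SMXL proteins, transcript levels do not measure protein levels.

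The protein feature that divides the family could be read from the genes' coding DNA. An RGKT motif (arginine, glycine, lysine, threonine), known to be needed for hormone-triggered degradation, was encoded once in SMAX1, SMXL2, SMXL6, SMXL7 and SMXL8, and no such codon run was found in SMXL3, SMXL4 or SMXL5. Over all annotated coding sequences of TAIR10.1, 0.441% of 27415 genes encode RGKT. The 5 stretches below are shown for this difference, from the RefSeq TAIR10.1 genome, 5′ to 3′ on the gene's strand, with the RGKT codons in capitals.
SMAX1 (chr5:23387153-23387212, plus strand): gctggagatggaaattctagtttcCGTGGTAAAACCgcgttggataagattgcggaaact
SMXL2 (chr4:14850137-14850196, plus strand): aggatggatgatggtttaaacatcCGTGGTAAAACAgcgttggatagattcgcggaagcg
SMXL6 (chr1:2209822-2209881, minus strand): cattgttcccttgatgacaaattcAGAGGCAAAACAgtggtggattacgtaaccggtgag
SMXL7 (chr2:12778906-12778965, plus strand): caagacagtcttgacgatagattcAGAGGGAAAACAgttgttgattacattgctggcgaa
SMXL8 (chr2:16768193-16768252, plus strand): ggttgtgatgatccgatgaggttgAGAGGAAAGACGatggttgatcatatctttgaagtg

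The EAR motif, through which SMXL proteins bind the TOPLESS co-repressors, was looked for as leucine or phenylalanine followed by aspartate, leucine and asparagine. It was encoded once in each of the 8 genes, against 1.5% of the 27415 genes. SMAX1 and SMXL2 matched through phenylalanine, and the other members through leucine. The stretches of the phloem members are shown because they carry this motif without RGKT, with its codons in capitals.
SMXL3 (chr3:19455931-19455990, minus strand): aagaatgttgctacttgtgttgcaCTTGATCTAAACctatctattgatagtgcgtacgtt
SMXL4 (chr4:14633097-14633156, minus strand): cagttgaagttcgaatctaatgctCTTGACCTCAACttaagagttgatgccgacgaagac
SMXL5 (chr5:23148895-23148954, plus strand): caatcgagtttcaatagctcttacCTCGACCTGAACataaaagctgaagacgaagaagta

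All 8 genes are multi-exon, with coding sequences of 2448 bp (SMXL3) to 3087 bp (SMXL5) in TAIR10.1. SMXL6 and SMXL7 were the closest pair by coding DNA, with 74.7% of aligned bases identical, followed by SMAX1 and SMXL2 with 69.9% and by SMXL4 and SMXL5 with 67.7%. Reads were nevertheless assigned without sharing, since 100% of the exon reads of every member were unique. SMXL8 (chromosome 2, 16765709 to 16769279) overlaps the antisense non-coding gene AT2G09115 by 156 bp, and without stated strand use reads there cannot be told apart. No annotated gene overlaps the other 7.

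Libraries held 28017346 to 37059413 exon reads in named loci. MOL1 (AT5G51350) had 29.6 and 29.6 CPM (reads per 1000000 of the scaled library) in WT replicates 1 and 2, against 9.51 and 9.18 CPM in the mutant. Its log2 difference, mol1-1 over WT, was -1.66 with an SE of 0.12 (adjusted p 0.0217, edgeR's quasi-likelihood test). Xylem markers (CESA4, CESA7, CESA8 and XCP1) and phloem markers (SUC2, APL, SEOR1 and SEOR2) were abundant, at a summed 5138 to 8955 CPM and 612 to 814 CPM. The 3 root markers reached at most 3 reads in a library, and EXPA7 and COBL9 had none. The floral markers AG, AP3 and PI had 15, 12 and 24 reads in WT replicate 1 and at most 8 reads elsewhere. PDF1, an epidermal marker, had 96 reads in WT replicate 1 and 6 to 7 in each other library, too few to be tested. The other 3 epidermal markers were tested and did not share 1 order. FAMA was highest in WT replicate 1 (10.4 CPM), ATML1 in WT replicate 2 (15.2 CPM) and MYB60 in mol1-1 replicate 1 (1.75 CPM). mol1-1 replicate 2 had lower values than the other libraries, by the median, for genes with exon lengths like those of the SMXL genes. Among 1522 tested genes with 2700 to 3600 bp of exon, the range that holds all SMXL genes, its median log2 CPM lay -0.19 from the mean of the 4 libraries, against 0.01, 0.10 and 0.10 in WT replicates 1 and 2 and mol1-1 replicate 1.

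All 8 members were expressed at the stem base and passed the filter on low counts. The D14 branch, SMXL6 to SMXL8, was the most abundant by sum and per gene. Levels between genes are compared as RPKM, the deposited exon reads per kilobase of exon per 1000000 gene reads. SMXL6, SMXL7 and SMXL8 together held 68.2% and 68.0% of the family's summed RPKM in the WT libraries, and 64.5% and 67.8% in the mol1-1 libraries. SMXL3, SMXL4 and SMXL5 held 17.9%, 17.0%, 18.3% and 17.9% in the same order, and SMAX1 and SMXL2 held 13.8%, 15.1%, 17.2% and 14.3%. The groups hold 3, 3 and 2 genes. Per gene, SMAX1 and SMXL2 averaged 13.4 to 18.8 RPKM and stood above the phloem group, at 11.2 to 13.9 RPKM, in each of the 4 libraries, and the D14 branch averaged 42.2 to 55.5 RPKM. The family's summed RPKM was 231.6 and 245.0 in WT and 217.8 and 186.9 in mol1-1.

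**Figure D1:**
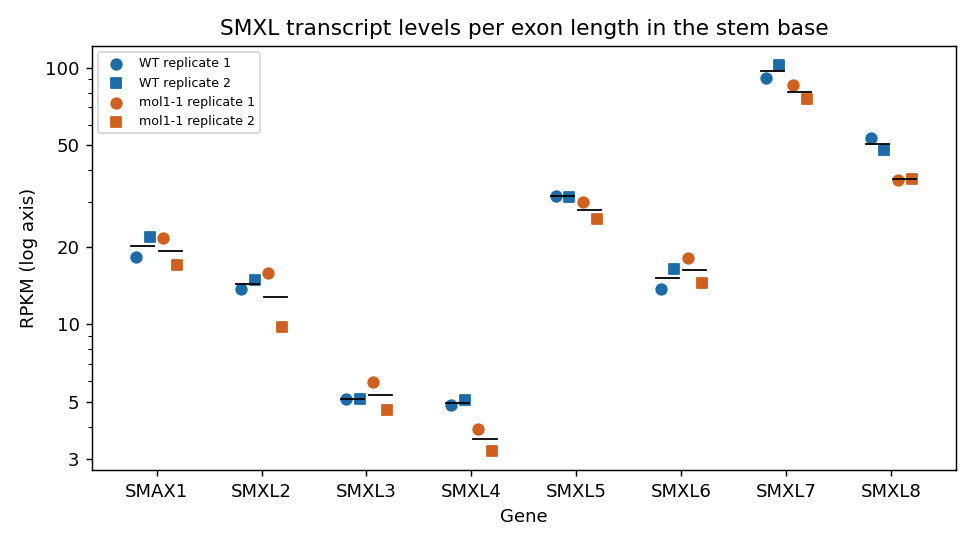
RPKM (log axis) of the 8 SMXL genes in each of the 4 libraries; blue points are WT, orange points mol1-1, and black bars the mean of each genotype. SMXL7 is highest at 75.2 to 102.2 RPKM and SMXL4 lowest at 3.21 to 5.05. The orange points lie below the blue ones for SMXL4, SMXL5, SMXL7 and SMXL8, of which SMXL5 overlaps in CPM.

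SMXL7 was the highest member, at a mean of 88.5 RPKM over the 4 libraries, above 92.8% of tested genes. SMXL8 followed at 43.6 RPKM, SMXL5 at 29.7 and SMAX1 at 19.7, and the ranges of these 4 over the libraries did not overlap one another. SMAX1, SMXL6 (15.7 RPKM) and SMXL2 (13.6 RPKM) had overlapping ranges from one to the next, although each of the 4 libraries held them in that order. SMXL3 at 5.21 RPKM and SMXL4 at 4.26 RPKM were well below the others, above 29.6% and 25.7% of tested genes, and their ranges overlapped. Thus among the phloem members SMXL5 was several times more abundant than its partners. Intron reads were few, at most 56 over all libraries (SMXL7, against 37755 exon reads).

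No member changed past the threshold between the genotypes. Of the 8 members 0 had an adjusted p under 0.05, where 0.2% of the 19024 tested genes did (0.189% higher and 0.0105% lower in mol1-1). The count was also 0 with DESeq2 and with limma-voom. SMXL8 and SMXL4 had an unadjusted p under 0.05, so 2 of 8 members did, both lower, against 5.94% of tested genes in either direction and 1.72% lower. Of the 8, 6 (75%) had a log2 fold change below 0, and the median was -0.13. Over the 1522 genes of like exon length 75.4% were below 0, a share like that of the members, with a median of -0.09, and over all tested genes 52.2% were, with a median of -0.01. The 95% intervals of the 8, not adjusted for their number, ran from 0.557-fold (lower bound of SMXL4) to 1.52-fold (upper bound of SMXL6), so none of them reached a 2-fold change in either direction.

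**Figure D2:**
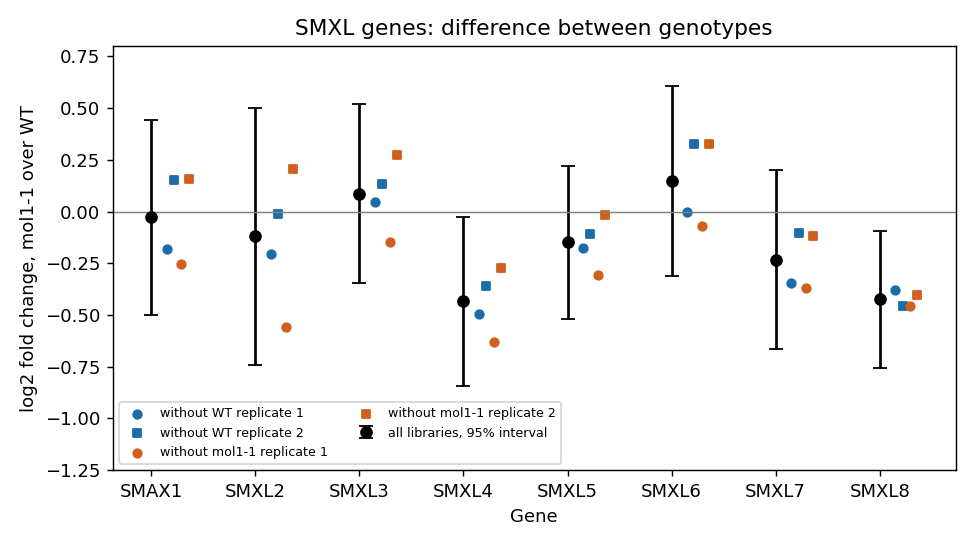
Log2 fold change of each SMXL gene, mol1-1 over WT; black points with bars are the estimate from all libraries with its 95% interval, and coloured points the estimate with 1 library left out. The intervals of SMXL4 (-0.84 to -0.02) and SMXL8 (-0.75 to -0.09) lie below 0, and the other 6 include it.

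Within the D14 branch, SMXL8 had the smallest p of the family. It had 159.3 and 148.8 CPM in the WT libraries, and 116.3 and 113.3 CPM in the mol1-1 libraries. Both mutant libraries were below both WT libraries. The log2 difference was -0.42 (SE 0.13, 95% interval -0.75 to -0.09, unadjusted p 0.0201, adjusted p 0.614), and with 1 library left out it ran from -0.46 to -0.38. With a correction for exon length, chosen after seeing the data, it was -0.33. SMXL7 (chromosome 2, 12776208 to 12780069) had 304.1 and 353.7 CPM in WT against 303.1 and 256.4 CPM in mol1-1. Its groups were apart only narrowly, between WT replicate 1 and mol1-1 replicate 1, and the log2 difference was -0.23 (SE 0.18, adjusted p 0.997). It ran from -0.37 to -0.10 with 1 library left out and was -0.12 with the length correction. SMXL6 (chromosome 1, 2208477 to 2212718) had 47.4 and 58.8 CPM in WT against 66.6 and 51.0 CPM in mol1-1. Its groups overlapped, and the log2 difference was 0.15 (SE 0.19, adjusted p 0.997). It was -0.0038 without WT replicate 1 and -0.07 without mol1-1 replicate 1.

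Within the phloem group, SMXL4 (chromosome 4, 14632413 to 14636101) had the most negative log2 fold change of the family. It had 14.6 and 15.8 CPM in WT against 12.6 and 9.91 CPM in mol1-1, from 463, 440, 452 and 285 reads. The mutant libraries lay below the WT libraries, mol1-1 replicate 2 furthest. The log2 difference was -0.43 (SE 0.17, 95% interval -0.84 to -0.02, unadjusted p 0.0412, adjusted p 0.796), and it was -0.27 without mol1-1 replicate 2, -0.63 without mol1-1 replicate 1 and -0.35 with the length correction. SMXL5 (chromosome 5, 23144947 to 23149615) had 111.6 and 114.9 CPM in WT against 112.0 and 92.4 CPM in mol1-1. Only mol1-1 replicate 2 stood below the other libraries, and the log2 fold change of -0.15 (SE 0.15, adjusted p 0.997) became -0.02 without it and -0.03 with the length correction. SMXL3 (chromosome 3, 19455505 to 19459203) had 14.1 and 14.7 CPM in WT against 17.4 and 13.1 CPM in mol1-1. The log2 difference was 0.08 (SE 0.18, adjusted p 0.997), and -0.15 without mol1-1 replicate 1. In bulk tissue, fewer phloem cells and less RNA per cell cannot be told apart.

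SMAX1 and SMXL2 spread more within genotypes than between them. SMAX1 (chromosome 5, 23384255 to 23388465) had 59.3 and 73.7 CPM in WT against 74.2 and 56.2 CPM in mol1-1. WT replicate 1 and mol1-1 replicate 2 were the low libraries, and the log2 difference was -0.03 (SE 0.19, 95% interval -0.50 to 0.44, adjusted p 0.997). SMXL2 (chromosome 4, 14847583 to 14851248) had 43.9 and 49.4 CPM in WT against 53.8 and 31.9 CPM in mol1-1. Its 2 mutant libraries were the highest and the lowest of the 4, and the log2 fold change of -0.12 (SE 0.25, adjusted p 0.997) was -0.56 without mol1-1 replicate 1 and 0.21 without mol1-1 replicate 2. The summed xylem markers were likewise lowest in WT replicate 1 and mol1-1 replicate 2, at 6280 and 5138 CPM against 8630 and 8955 CPM in WT replicate 2 and mol1-1 replicate 1. The summed phloem markers gave 626 and 612 CPM against 814 and 800 CPM, an order shared by SUC2, SEOR1 and SEOR2. APL, the remaining phloem marker, departed from it. Its highest value was that of WT replicate 1 (15.2 CPM), with 12.5 to 13.1 CPM elsewhere. The part of these marker differences in the SMXL values was not tested.

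mol1-1 replicate 2 was the lowest library for 7 of the 8 members. The exception was SMXL6, lowest in WT replicate 1. The deviation of mol1-1 replicate 2 from the mean of the 4 libraries ran from -0.12 (SMXL6) to -0.46 (SMXL2) on the log2 scale. Median coverage for a given number of exon reads was also lowest there for 7 of the 8 members. The exception was SMXL4, at 15.1, 13.6, 15.5 and 14.04 per 1000 exon reads (the 2 WT libraries, then those of mol1-1), and SMXL8 differed little, at 16.2, 16.4, 15.8 and 15.3. The drop was largest in SMXL2, which had 15.1, 15.3 and 16.0 per 1000 exon reads in WT replicates 1 and 2 and mol1-1 replicate 1, and 10.9 in mol1-1 replicate 2. Over the genes of like exon length the medians were 14.9, 15.3, 15.2 and 13.1. Reads across exon junctions made up 16.5%, 16.7% and 16.4% of exon reads in the first 3 libraries and 15.2% in mol1-1 replicate 2, and 2.73%, 2.52%, 2.63% and 2.10% of those of the SMXL genes.

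**Figure D3:**
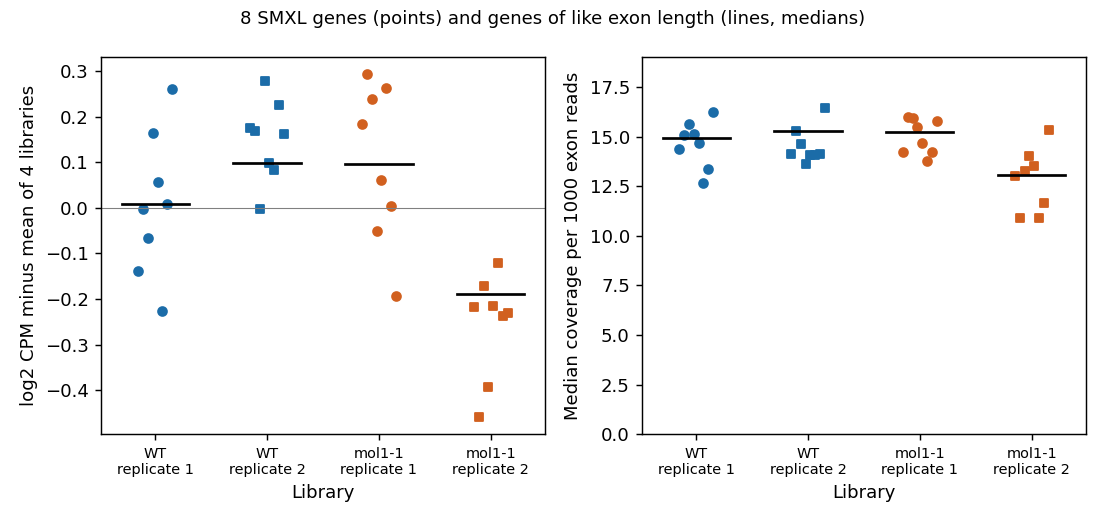
Left, log2 CPM of each SMXL gene minus its mean over the 4 libraries; right, median coverage per 1000 exon reads; points are the 8 SMXL genes and black lines the medians of 1522 tested genes with 2700 to 3600 bp of exon. In mol1-1 replicate 2 all points on the left lie below 0, where the line is at -0.19, and the line on the right is at 13.1 against 14.9 to 15.3.

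Ratios between close paralogs within a library are free of library scaling and set genes with 2797 to 3571 bp of exon against each other. Of 5 ratios 3 were apart between genotypes, and the share among ratios of other gene pairs was not counted. With 2 against 2 libraries, random order alone sets a ratio apart with a probability of 0.333. The log2 ratio of SMXL3 to SMXL4 in RPKM was 0.08 and 0.02 in WT, and 0.60 and 0.53 in mol1-1. In WT the pair thus stood at nearly equal RPKM, while in both mutant libraries SMXL3 exceeded SMXL4. The log2 ratio of SMXL4 to SMXL5 was -2.71 and -2.64 in WT, and -2.93 and -3.00 in mol1-1, lower in both mutant libraries. The log2 ratio of SMXL6 to SMXL7 was -2.73 and -2.64 in WT, and -2.23 and -2.38 in mol1-1, higher in both. The means of these 3 ratios differed by 0.51, -0.29 and 0.38, and the SDs within a genotype were at most 0.10 (n = 2 each). The ratios of SMAX1 to SMXL2 and of SMXL7 to SMXL8 overlapped between genotypes. An exact permutation test of 2 against 2 libraries cannot give a two-sided p below 0.333, so no ratio was tested, and those of SMXL3 and SMXL5 share SMXL4. For single genes in CPM, the libraries were apart in 16.8% of the tested genes as lower in mol1-1 and in 16.9% as higher. Among the members they were apart in 3 of 8 as lower and in 0 as higher.

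Of the 5 genes that make strigolactone 0 passed in either direction. All 5 had a log2 fold change below 0, with a median of -0.55, where 52.2% of all tested genes were below 0. All 5 were, however, highest in WT replicate 1. The genotypes were apart, lower in mol1-1, in 3 of the 5 (MAX3, LBO1 and D27), against 16.8% of all tested genes. Without WT replicate 1 the median was -0.39 and 4 of 5 were below 0, where 49.7% of all tested genes were. MAX3 (AT2G44990), a carotenoid cleavage dioxygenase, had 52.3 and 29.9 CPM in WT against 19.7 and 19.3 CPM in mol1-1. WT replicate 1 stood far above the rest, and this library also held the floral and PDF1 reads given above, whose part in the value was not tested. The log2 fold change of MAX3 was -1.08 (SE 0.26, unadjusted p 0.00701, adjusted p 0.391), and it was -0.62 without WT replicate 1 and -1.41 (adjusted p 0.0368) without WT replicate 2. LBO1 (AT3G21420), an oxygenase of a late step, had 7.70 and 7.01 CPM in WT against 4.14 and 4.45 CPM in mol1-1. Its log2 difference was -0.78 (SE 0.18, unadjusted p 0.00545, adjusted p 0.349). It depended little on WT replicate 1, since leaving that library out gave -0.71. D27 (AT1G03055), the isomerase of the first step, had 3.06 and 2.48 CPM against 1.95 and 1.84 CPM (-0.55, SE 0.27, adjusted p 0.931). Leaving out WT replicate 1 gave -0.39 for D27. MAX4, a second cleavage dioxygenase, had 69.6 and 41.7 CPM in WT against 36.4 and 46.8 CPM in mol1-1, and its log2 fold change of -0.42 (SE 0.27) became -0.01 without WT replicate 1. MAX1, a cytochrome P450, had 10.002 and 6.97 CPM against 8.26 and 6.78 CPM, and its -0.17 (SE 0.23) became 0.11 without that library. The genotypes overlapped in both.

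**Figure D4:**
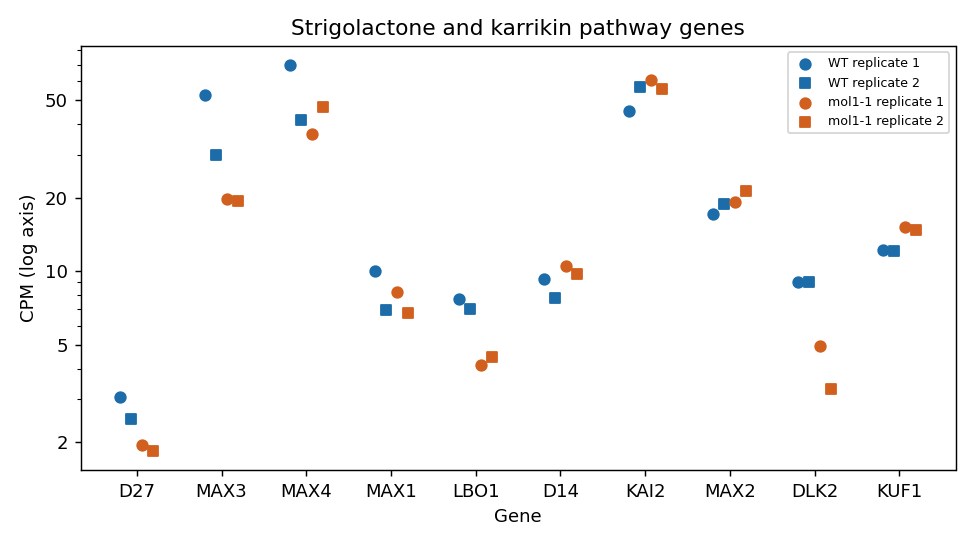
CPM (log axis) of strigolactone synthesis genes (D27 to LBO1), receptors and MAX2, and the responsive genes DLK2 and KUF1 in each library; blue points are WT and orange points mol1-1. DLK2 lies at 9.02 to 9.06 CPM in WT and at 3.30 to 4.95 in mol1-1, while MAX2 spans 17.2 to 21.2 CPM over both.

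Of the 7 perception genes, among them the receptors, MAX2 and the core of its ubiquitin ligase, 0 passed in either direction. D14 (AT3G03990) had 9.34 and 7.80 CPM in WT against 10.5 and 9.73 CPM in mol1-1, and the log2 difference was 0.24 (SE 0.16, adjusted p 0.997). MAX2 (AT2G42620) had a log2 difference of 0.17 (SE 0.13, adjusted p 0.997). DLK2 (AT3G24420), a D14-like gene known to be induced when SMAX1 and SMXL2 are removed, had 9.06 and 9.02 CPM in WT against 4.95 and 3.30 CPM in mol1-1. Its mutant libraries were clearly below the WT libraries. The log2 difference was -1.12 (SE 0.24, 95% interval -1.71 to -0.54, unadjusted p 0.00335, adjusted p 0.283). With DESeq2 the adjusted p was 0.0331 for DLK2 and 0.0129 for MAX3, among 281 genes past the threshold against 38 in edgeR. KUF1 (AT1G31350), another karrikin-induced gene, had the opposite sign, with 12.3 and 12.1 CPM in WT against 15.2 and 14.7 CPM in mol1-1 (log2 fold change 0.29, SE 0.13, adjusted p 0.895).

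Of the 9 genes listed as downstream of SMXL proteins 3 had enough reads to be tested, and 0 passed. PAP1, an anthocyanin regulator, had a log2 difference of 0.01 (SE 0.28). BRC1, the branching repressor that SMXL6, SMXL7 and SMXL8 restrain in buds, had 20 and 0 exon reads in WT and 6 and 8 in mol1-1, too few to be tested, and BRC2, HB21, HB40, HB53 and BBX20 had at most 11 in any library. The 5 TOPLESS co-repressor genes all had log2 fold changes between -0.19 and -0.12, and 0 passed. TPR1, TPR3 and TPR2, those with the smallest p, had -0.18, -0.19 and -0.19 (adjusted p 0.997 each). These are long genes, of 3744 to 4299 bp of exon, and all 5 were lowest in mol1-1 replicate 2. With the length correction TPR1, TPR3 and TPR2 were at -0.05, -0.08 and -0.08 and 3 of the 5 genes were below 0, and without mol1-1 replicate 2 only 2 were.

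Other phloem genes showed no common shift in the fit of all 4 libraries. Of 24 tested genes of phloem formation 0 passed, 14 were below 0 and 10 above, and the median log2 fold change was -0.03. With the length correction 11 were below 0 (median 0.02). Without mol1-1 replicate 2 only 6 were (median 0.07), where 51.4% of all tested genes were. Leaving out any other library gave 12 to 14 below 0. BAM3 (AT4G20270), a receptor kinase of early phloem, had 78.3 and 78.3 CPM in WT against 67.2 and 57.1 CPM in mol1-1 (log2 fold change -0.33, SE 0.14, adjusted p 0.852). NEN4, a nuclease of sieve element enucleation, had 0.45 (SE 0.38), and 0.05 without mol1-1 replicate 1 or 0.75 without mol1-1 replicate 2. PEAR2, a mobile transcription factor of early phloem, had -0.30 (SE 0.27), and -0.65 or -0.03 without the same libraries. OBE3, known as a partner of SMXL5 in phloem formation, had 109.7 and 117.2 CPM in WT against 119.9 and 120.3 CPM in mol1-1. JUL1 and JUL2, RNA-binding proteins known to restrain SMXL4 and SMXL5 translation, had log2 fold changes of -0.03 (SE 0.21) and 0.10 (SE 0.20).

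Of the 6 cambium genes 0 passed, and the median log2 fold change was 0.06. CLE44, a source of the TDIF peptide, had 3.06 and 2.30 CPM in WT against 3.73 and 4.03 CPM in mol1-1 (0.53, SE 0.25, adjusted p 0.919). ANT had -0.12 (SE 0.12) and WOX14 had 0.16 (SE 0.17). Among the 6 Clp and Hsp100 ATPases, the relatives of SMXL proteins in protein quality control, 0 passed and the median was -0.10, with HSP101 at -0.27 (SE 0.14), CLPB4 at -0.25 (SE 0.13) and CLPB3 at -0.16 (SE 0.19). Of these ATPases 5 were below 0, but only 3 were with the length correction (median -0.008) or without mol1-1 replicate 2 (median 0.02). Leaving out any other library gave 4 to 5 below 0. Over the 7 lists 0 of 55 tested genes passed in edgeR, where 0.2% of all tested genes did. With DESeq2 2 passed (MAX3 and DLK2), where 281 genes passed in all against 38 in edgeR, and with limma-voom 0. In edgeR 3 of the 55 had an unadjusted p under 0.05, a share like the 5.94% of all tested genes.

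Genes whose values ran closest to those of SMXL8 over the 4 libraries were AT2G16595, AT4G26870 and SHM3 (AT4G32520), with Pearson's r of 0.99989, 0.99987 and 0.99986 for log2 CPM. These are descriptions over 4 points that share their libraries, and 106 of 19023 other tested genes had an r above 0.99.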

How the data were processed

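Per the file headers, the authors deposited for each library read counts per locus (total and unique reads in exons and genes, exon-exon and intron reads), exon length, median coverage and RPKM. The deposited RPKM divides total exon reads by exon length in kilobases and by 1000000 total gene reads. The submitters' processing notes name TAIR10. For the aligner, the counting program and strand use, nothing was stated (not given in the sources used here). Left out were the 5 rows without a locus name (0.0586% to 0.0864% of exon reads), and 2 loci listed more than once were summed.

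The test on total exon reads was edgeR 4.0.16 under R 4.3.3 (filterByExpr, TMM, quasi-likelihood test without covariates), with Benjamini-Hochberg adjustment over 19024 tested genes and a threshold of 0.05. An SE is the log2 fold change divided by the root of F, and a 95% interval uses the test's degrees of freedom. CPM use TMM-scaled library sizes. Scripts were tested on simulated data, where the share of false genes among the calls of the edgeR test exceeded the nominal threshold, so adjusted p-values near it are less strict than they read. Alternatives were DESeq2 1.42.0, limma-voom (limma 3.58.1), RLE, other filters, other read classes, a replicate block and leaving out each library; a per-library spline on exon length was added after seeing the data. Coding DNA comes from RefSeq TAIR10.1, whose exon lengths for 7 of the 8 genes differ from the files', and was aligned with Biopython 1.88. Symbols of DLK2, OBE3, OBE4, JUL1, JUL2, PEAR1 and PEAR2 are not in the reference table and were given by locus.

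Members and lists were chosen with earlier results of these data known. Named genes were the 8 members, MOL1, list members past the threshold and the 3 of smallest p per list; OBE3, JUL1, JUL2, MAX4 and MAX1 were named after their values were seen.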

Additional observations from a re-analysis of the deposited data

How the results depend on the processing

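The count of 0 SMXL members past the threshold held in each of the 13 alternatives, as did the direction of SMXL4, SMXL5, SMXL7 and SMXL8. Signs turned for the genes that follow, whose estimates from all libraries ran from -0.19 (TPR2) to 0.15 (SMXL6). With the exon length correction SMAX1 was 0.0688 and PAP1 -0.0646. With 1 library left out, SMAX1 ran from -0.26 to 0.16, SMXL2 from -0.56 to 0.21, SMXL3 from -0.15 to 0.27, SMXL6 from -0.0686 to 0.33, PAP1 from -0.30 to 0.43, JUL1 from -0.34 to 0.22, JUL2 from -0.0648 to 0.31, MAX1 from -0.39 to 0.11, CLPB3 from -0.43 to 0.0584 and TPR2 from -0.44 to 0.0109. The number of genes past the threshold, 38, was 281 with DESeq2, 141 with no filter and 37 to 409 with 1 library left out (89 without WT replicate 2, 409 without mol1-1 replicate 1, 212 without mol1-1 replicate 2), where a lone library is taken to vary like those of the other genotype. Pathway list members past the threshold numbered 2 with DESeq2 and 0 to 1 with 1 library left out. Log2 fold changes of MOL1 ran from -1.70 to -1.64 in those fits. The cause of these changes was not tested.

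Replicate numbers 1 and 2 occur in both genotypes, but nothing in the labels says that equal numbers belong together, and the mutant libraries, 1 and 2 in the titles, carry the numbers 2 and 3 in the sheet names of the deposited tables. The titles were followed. Across genes, the deviations of WT replicate 1 and mol1-1 replicate 1 from their genotype means had a correlation of -0.238. With 2 libraries a genotype, WT replicate 2 and mol1-1 replicate 1, which share a sheet number, have the same correlation with the opposite sign. With a replicate block on the title numbers 136 genes passed, and 0 SMXL members. The size of difference that these 4 libraries leave possible is bounded by each gene's 95% interval, widest among the members for SMXL2 (-0.74 to 0.50).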
